A study of Saccharomyces cerevisiae with 4 samples.

Results

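The COS genes form a family of related genes that lie near the telomeres of many budding yeast chromosomes. They were followed here in Saccharomyces cerevisiae arrays labelled hst3hst4 and wild-type. The members were 8 genes, COS4, COS5, COS6, COS7, COS8, COS9, COS10 and COS12, and a probe set counted as theirs where the platform annotation gave it that gene alone. By this rule 15 of 9275 yeast probe sets, and 7 of the 5656 genes that have at least 1 probe set to themselves, belonged to the family, while COS5 had none. The family was selected on its signal differences between these same arrays, so those differences are given as a description. The counts of COS probe sets below test nothing about the family.

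COS proteins span the membrane several times and are found in endosomes. They help to sort plasma membrane proteins marked with ubiquitin into the vesicles of the multivesicular body, which the vacuole then degrades. Genes near yeast telomeres can be silenced by the Sir protein complex, which spreads inward from the chromosome end. HST3 and HST4 encode NAD-dependent deacetylases related to Sir2, best known for removing acetyl groups from lysine 56 of histone H3, and loss of both is known to weaken the silencing of reporter genes placed near telomeres.

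The 4 arrays came from cultures in rich YPD medium. There were 2 cultures of strain YCB600, labelled hst3hst4 mutant, and 2 of strain YCB617, labelled wild-type, both of the FY background. The labels list no other allele or agent. Signals are linear intensities scaled by array, and a log2 difference below is that of log2(signal + 3.3), hst3hst4 minus wild-type, which understates the change of dim genes. A probe set was tested if it lay above the lowest 20% by mean signal, at about 8.97. With 2 arrays per strain the number of arrays limits every value.

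The deleted genes did not both follow the labels. HST3 gave 0.4 and 0.5 (hst3hst4) against 13.7 and 25.3 (wild-type), but HST4 gave 38.0 and 39.3 against 3.6 and 0.9. Where the HST4 probes lie relative to a deletion is not given in the sources used here, so every direction below is that of arrays by their labels. The median signal ran from 37.5 to 41.2 over the arrays. All 9 hybridisation controls were dimmer in the hst3hst4 group, with a mean log2 difference of -0.36. Of 7 a-specific mating genes, none was above 0, against 2547 of all 5271 genes tested. By limma, 1 fell (STE6, the a-factor exporter, at -1.05), against 0.531% lower over all genes tested, and 4 had an unadjusted p under 0.05, against 20.2% of all tested probe sets. The call of STE6 was lost without either hst3hst4 array, when dim probe sets were kept in, without the variance trend and on scaling by the hybridisation controls. ASG7 followed at -0.76, and the a-factor genes MFA2 and MFA1 stood at -0.18 and -0.11. The summed signals of the 7 were 3685.9 and 3906.3 against 4626.1 and 4434.3. None of 4 alpha-specific genes passed in limma, against 2.73% of all genes tested. By the same fit 2 had an unadjusted p under 0.05, against 20.2% of all tested probe sets. SAG1 stood at 0.96, STE3 at 0.77, MF(ALPHA)1 at 0.54 and MF(ALPHA)2 at -0.13. The summed signals of the 4 were 156.7 and 178.4 against 85.8 and 134.3. As signs of RNA quality, the ratio of 3' to 5' signal was 3.82 and 3.70 against 4.64 and 5.20 for YER148w, and 2.34 and 1.90 against 1.87 and 1.63 for YER022w. The strains did not overlap on either ratio, in opposite directions, and overlapped on that of YFL039C. In RNA from whole cultures, fewer cells expressing a gene and less RNA per cell cannot be told apart. The part of these shifts in the COS results was not tested.

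Among the COS genes, COS8 and COS12 were higher on the arrays labelled hst3hst4, COS4, COS6 and COS7 differed by less, COS9 was lower by its brighter probe sets, and COS10 showed no common direction. COS8 gave 263.3 and 326.5 (hst3hst4) against 63.0 and 60.5 (wild-type) by its _i_at probe set. COS12 had 24.7 and 27.3 against 7.2 and 5.0. Of the 15 COS probe sets, 11 were bright enough to be tested. Of these 11, 4 passed an adjusted p of 0.05 in limma, all higher, against 2.64% of all 7420 probe sets tested in either direction, 2.10% higher and 0.539% lower. The 4 are the 3 probe sets of COS8 and that of COS12, which entered the fit only through its high hst3hst4 signals. Because the family was chosen with this contrast in view, nothing is read from that count. The 11 had a median log2 difference of 0.30, against -0.02 over all tested probe sets.

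**Figure D1:**
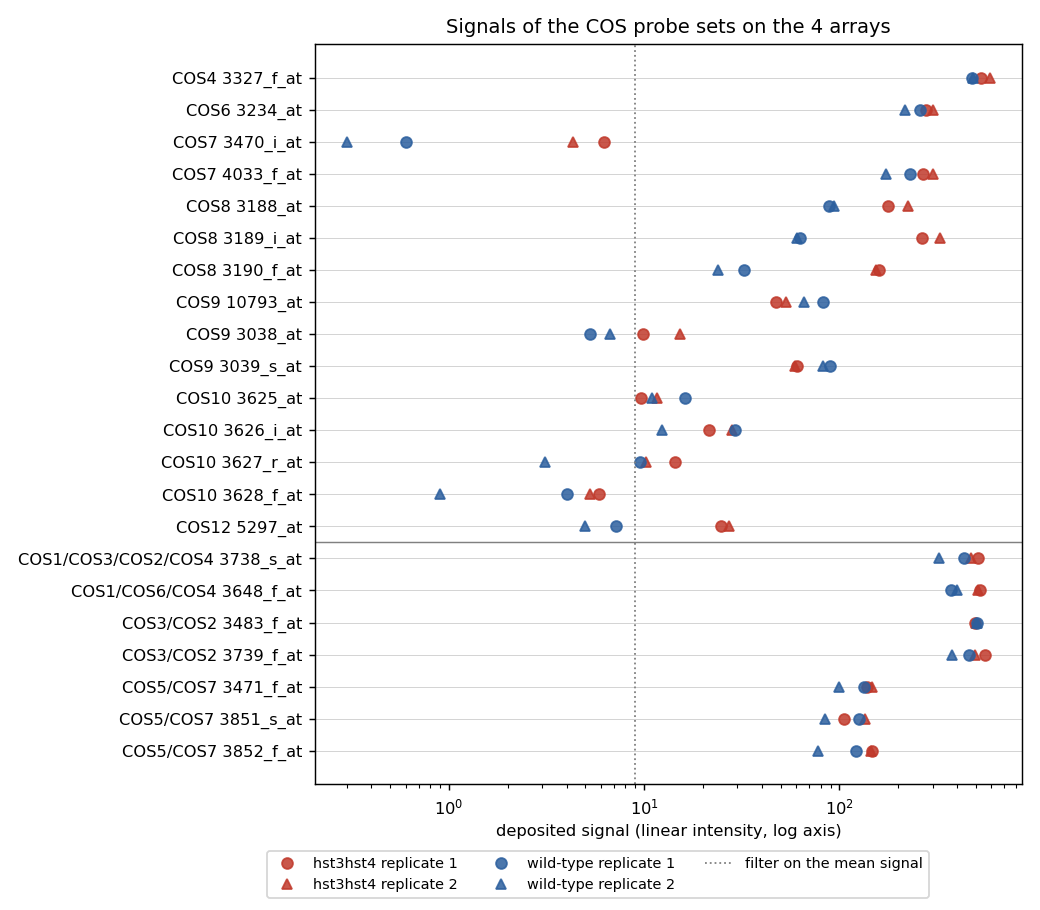
Deposited signal (linear intensity on a log axis) of each COS probe set on the 4 arrays, with hst3hst4 in red and wild-type in blue, circles for replicate 1 and triangles for replicate 2. Probe sets above the grey line list 1 gene and those below it several; the dotted line marks a signal of 8.97, the filter on the mean. The red and blue points of COS8 and COS12 stand apart, while those of COS10 mix on its _at and _i_at sets.

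COS8 (YHL048W) lies on chromosome 8 at 6401 to 7546 in the R64 assembly, 6.4 kb from the left end. It was read by 3 probe sets. On the _i_at set the hst3hst4 mean was 294.9 ± 44.7 (SD, n = 2) and the wild-type mean 61.75 ± 1.77 (SD, n = 2), a log2 difference of 2.19 (SE 0.18) or 4.56-fold. On its _f_at set the signals were 159.9 and 154.0 against 32.3 and 23.8, a log2 difference of 2.37 (SE 0.20).

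The third probe set, a plain _at set, gave a smaller ratio for the same gene. Its signals were 177.4 and 224.1 against 88.2 and 93.9, a log2 difference of 1.10 (SE 0.18) or 2.15-fold. On all 3 the lower hst3hst4 array was above the higher wild-type array, as on 25.4% of all tested probe sets. Over the 4 array pairs the lowest difference was 0.89. Under the maker's naming, a plain _at set is meant to be unique to its gene, _i_at has fewer unique probes than the design asks for, _s_at shares its probes with other transcripts, _r_at was picked with some selection rules dropped, and _f_at reads a sequence family. The 3 probe sets of COS8 therefore agree in direction and not in size, and how far each also reads other COS transcripts was not tested.

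COS12 (YGL263W) lies on chromosome 7 at 2790 to 3932, 2.8 kb from the left end. Its single probe set, a plain _at set, had a mean of 26.0 ± 1.84 (SD, n = 2) against 6.1 ± 1.56 (SD, n = 2). The log2 difference was 1.65 (SE 0.32), 3.14-fold, with a range of 1.42 to 1.88 over the array pairs. Both wild-type signals lie under 8.97, so this probe set passed the filter only through the hst3hst4 arrays.

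That count of 4 changed with the arrays in the fit, where a lone array is assumed to vary like the other strain. It fell without either hst3hst4 array and rose without wild-type replicate 1. The differences moved less: leaving out any 1 array kept COS8 between 2.04 and 2.34 on its _i_at set and between 0.94 and 1.27 on its _at set. COS12 stayed between 1.48 and 1.82, and COS8 on its _f_at set between 2.17 and 2.56.

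**Figure D2:**
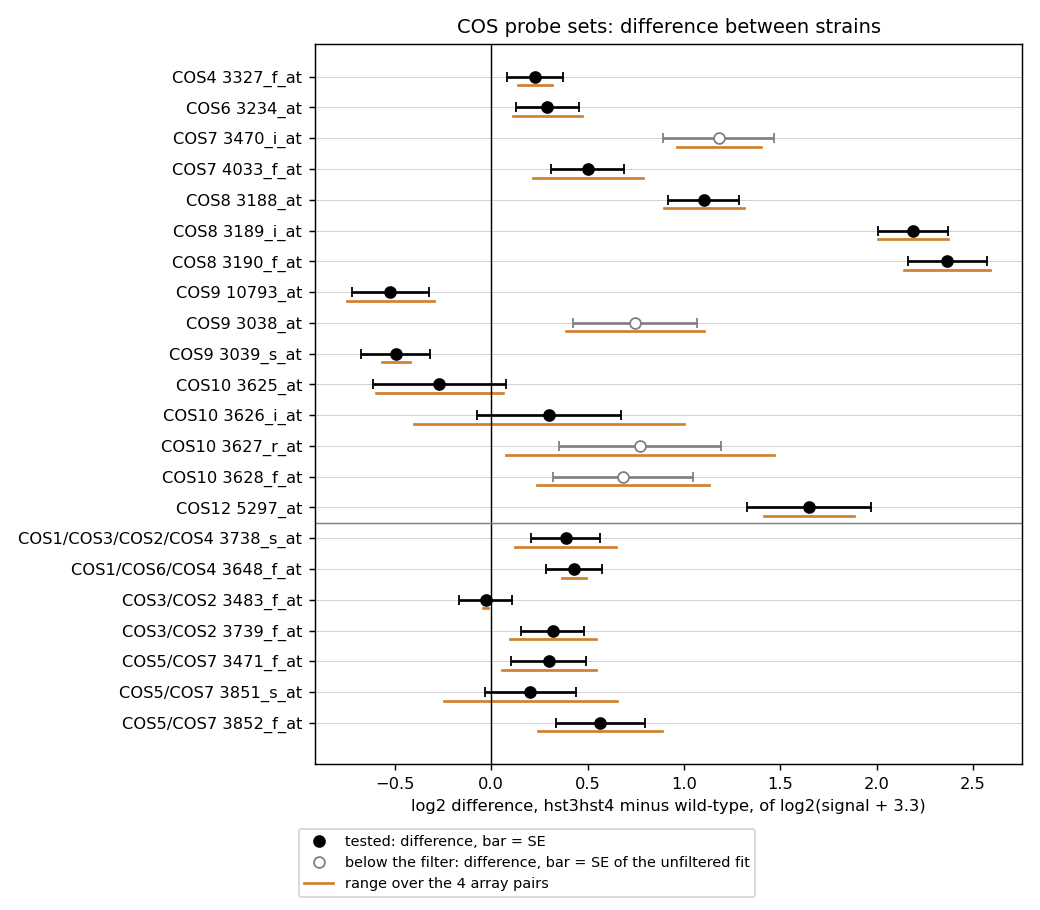
Log2 difference between the strains for each COS probe set, with bars of 1 SE and, in orange, the range over the 4 array pairs. Filled points were tested; open points lie below the filter and carry the SE of the unfiltered fit. COS8 and COS12 lie between 1.10 and 2.37, COS9 at -0.52 and -0.50 on its tested sets and 0.75 on its dim one, the dim COS7 set at 1.18, and the probe sets with several COS genes, below the line, between -0.03 and 0.57.

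COS4, COS6 and the _f_at set of COS7 were well above the filter on every array, with log2 differences of 0.23 to 0.50 between the strains. COS4 (YFL062W, chromosome 6, 6426 to 7565, 6.4 kb from the left end) had signals of 528.7 and 592.0 (hst3hst4) against 474.9 and 480.2 (wild-type). They come from its only probe set to itself, an _f_at set. How far that set also reads other COS transcripts was not tested. Its log2 difference was 0.23 (SE 0.15, 1.17-fold). The arrays of the strains did not overlap, as on 52.5% of all tested probe sets. The higher hst3hst4 array exceeded the other by 0.16, which is of the same order as the difference between the strains.

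COS6 (YGR295C, chromosome 7, 1081584 to 1082729, 7.9 kb from the outermost gene annotated at the right end) had 278.1 and 300.0 against 257.1 and 215.4 on a plain _at set. The log2 difference of 0.29 (SE 0.17) is close to the 0.25 between the wild-type arrays. COS7 (YDL248W, chromosome 4, 1802 to 2953, 1.8 kb from the left end) had 266.8 and 301.8 against 229.5 and 173.7 on its _f_at set. That log2 difference was 0.50 (SE 0.19), but 0.30 without wild-type replicate 2. Leaving out wild-type replicate 1 in its place gave 0.70.

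The second COS7 probe set, an _i_at set, was dim, with 6.2 and 4.3 against 0.6 and 0.3. It was not tested, and a fold would depend on the constant added to the signal. Both of its wild-type values lie below both hst3hst4 values, as they do for the _f_at set.

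COS9 was the member with lower hst3hst4 signals on its tested probe sets. COS9 (YKL219W, chromosome 11, 14485 to 15708) lies 14.5 kb from the left end, farther in than any other member. On the brighter of its plain _at sets the signals were 47.4 and 53.1 (hst3hst4) against 81.9 and 66.0 (wild-type), a log2 difference of -0.52 (SE 0.20). On its _s_at set they were 60.7 and 59.5 against 89.8 and 82.5, a log2 difference of -0.50 (SE 0.18).

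The arrays of the strains did not overlap on either probe set, nor on 52.5% of all tested probe sets. The third COS9 probe set, a dim _at set, ran the other way at 9.8 and 15.2 against 5.3 and 6.7, but lay below the filter. When the arrays were scaled on the hybridisation controls, the differences of the tested sets were -0.16 and -0.14.

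COS10 (YNR075W, chromosome 14, 779916 to 781040, 2.5 kb from the outermost gene annotated at the right end) was dim on all 4 of its probe sets, with no signal above 29.3. On its _i_at set it had 21.4 and 28.1 (hst3hst4) against 29.3 and 12.4 (wild-type). The log2 difference of 0.30 (SE 0.37) is smaller than the 1.05 between the wild-type arrays, and it became -0.23 without wild-type replicate 2 and 0.83 when replicate 1 was left out in its place. The plain _at set had 9.6 and 11.6 against 16.2 and 11, a log2 difference of -0.27 (SE 0.35).

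The strains overlapped on both of these COS10 probe sets. The other 2, an _r_at and an _f_at set, lay below the filter, with signals of 14.4 and 10.2 against 9.5 and 3.1 on the former and of 5.9 and 5.3 against 4.0 and 0.9 on the latter. In both the low value of wild-type replicate 2 widens the gap. A difference in COS10 was not detectable with these arrays.

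Over the 11 tested COS probe sets, the arrays of the strains did not overlap on 9, 7 of them higher on the hst3hst4 arrays. The shares over all tested probe sets were 52.5%, and 25.4% higher. The 7 include every probe set of COS8 and that of COS12. Because the family was chosen on this contrast, nothing is read from these counts. The 4 dim probe sets, of COS7, COS9 and COS10, were all higher there. They lie near the bottom of the signal range and support no direction. Leaving out COS8 and COS12, a choice made after their values were seen, 7 tested probe sets remained with a median of 0.23 and a range of -0.52 to 0.50. The arrays of 1 strain differed from each other by a median of 0.30 (wild-type) and 0.16 (hst3hst4) on the tested COS probe sets, against 0.24 and 0.20 over all tested probe sets. Differences of the size seen for COS4, COS6 and COS10 are therefore within or close to the spread between cultures.

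The wild-type replicates set much of the family's median. Wild-type replicate 2 had the lowest median of the COS probe sets, and the median over the 11 was 0.15 and 0.32 when hst3hst4 replicates 1 and 2 were set against wild-type replicate 1, but 0.61 and 0.79 against wild-type replicate 2.

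COS5 (YJR161C, chromosome 10, 742848 to 743999), the outermost gene annotated at its right end, could be seen only through 3 probe sets that it shares with COS7. Their signals ran from 105.9 to 146.5 (hst3hst4) and from 77.4 to 133.4 (wild-type). The log2 differences were 0.30, 0.20 and 0.57, and the wild-type arrays differed from each other by 0.41, 0.57 and 0.63 on the same probe sets. On the one with 0.57, the difference was 0.25 without wild-type replicate 2 and 0.88 when replicate 1 was left out in its place. These values cannot be divided between COS5 and COS7.

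COS1, COS2 and COS3, the other genes of the family, likewise had only shared probe sets, 4 in all, some of which also read COS4 or COS6. Their signals on the 4 arrays lay between 324.9 and 553.2. The probe set listing COS1, COS4 and COS6 had 525.9 and 514.1 against 372.5 and 398.3, a log2 difference of 0.43 (SE 0.14). On it the arrays of the strains did not overlap, nor on 52.5% of all tested probe sets. Of the 2 probe sets of COS2 and COS3, the first showed next to no difference, with 493.5 and 498.3 against 503.6 and 508.5. The second gave 553.2 and 495.2 against 462.9 and 378.3, a log2 difference of 0.32 (SE 0.16). COS111 bears the COS name but lies 179.5 kb from the end of chromosome 2 and is not a family member in sequence; it was dim, with 4.8 and 4.9 against 0.1 and 4.0.

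Neighbouring genes show what else was measured at the same chromosome ends. For each member the nearest gene on each side with a probe set of its own was taken, which gave 12 genes, 10 of them tested. None of the 10 passed in limma, against 2.73% of all genes tested, and 6 had an unadjusted p under 0.05, against 20.2% of all tested probe sets. Of the 10, 9 had a log2 difference above 0, with a median of 0.68. Over all 5271 genes tested, 2547 were above 0, with a median of -0.01. Both wild-type signals of AGP3, 7.9 and 8.4, lie under 8.97, so it passed the filter only through the hst3hst4 arrays. FRE2 had 5.3 on wild-type replicate 1, also under 8.97. Nothing is read from that count. Beside COS8, YHL048C-A, an uncharacterised open reading frame 0.6 kb away, had 36.9 and 27.4 (hst3hst4) against 12.6 and 16.2 (wild-type). Its log2 difference was 1.0 (SE 0.28, limma adjusted p = 0.111).

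On the other side of COS8, 0.8 kb away, ARN2, a siderophore transporter, had 41.1 and 48.1 against 29.7 and 40.2 (0.33, limma adjusted p = 0.459). Beside COS12, YGL262W was dim, with 1.0 and 8.7 against 1.4 and 0.7. Neither neighbour of COS8 had a difference as large as the 2.19 on COS8's brightest probe set, its _i_at set. On the plain _at set of COS8 the difference was 1.10 (SE 0.18), close to that of YHL048C-A at 1.0 (SE 0.28). Differences between COS8 and its neighbours were not tested.

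COS9 lay between genes whose values ran opposite to its own. FRE2, a ferric reductase, had 24.6 and 31.5 (hst3hst4) against 5.3 and 13.1 (wild-type), a log2 difference of 1.39 (SE 0.38, limma adjusted p = 0.106). SRY1, a dehydratase of hydroxyaspartate, had 66.4 and 68.7 against 52.8 and 33.6, a log2 difference of 0.64 (SE 0.24, limma adjusted p = 0.20). The strains did not overlap on either gene, nor on 52.5% of all tested probe sets, and neither gene passed.

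Around COS10, AIF1, a homolog of the mammalian apoptosis-inducing factor, had 83.2 and 80.9 against 39.8 and 52.1 (0.80, SE 0.20, limma adjusted p = 0.0895). YNR077C, at the outermost position, had 41.5 and 27.7 against 23.2 and 15.9 (0.72, limma adjusted p = 0.225). At this end AIF1 and YNR077C therefore had larger differences than the tested probe sets of COS10, although neither passed. The _r_at and _f_at sets of COS10, below the filter, had 0.77 and 0.68.

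The remaining neighbours had smaller or overlapping values, apart from AAD10. AAD10, an aryl-alcohol dehydrogenase homolog 15.7 kb from the COS5 end, had 47.3 and 65.7 against 25 and 33.2, a log2 difference of 0.88 (limma adjusted p = 0.115). AGP3, an amino acid permease 9.44 kb from COS4 with 4 genes between, had 0.49 (limma adjusted p = 0.469). MAL11, a maltose permease 5.77 kb from COS6 with 2 genes between, had -0.13 (limma adjusted p = 0.811). It was the one tested neighbour below 0. YFL067W, 5.06 kb from COS4 with 3 genes between, had 0.18 (limma adjusted p = 0.719). MPH2, a maltose permease beside COS7, was below the filter.

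**Figure D3:**
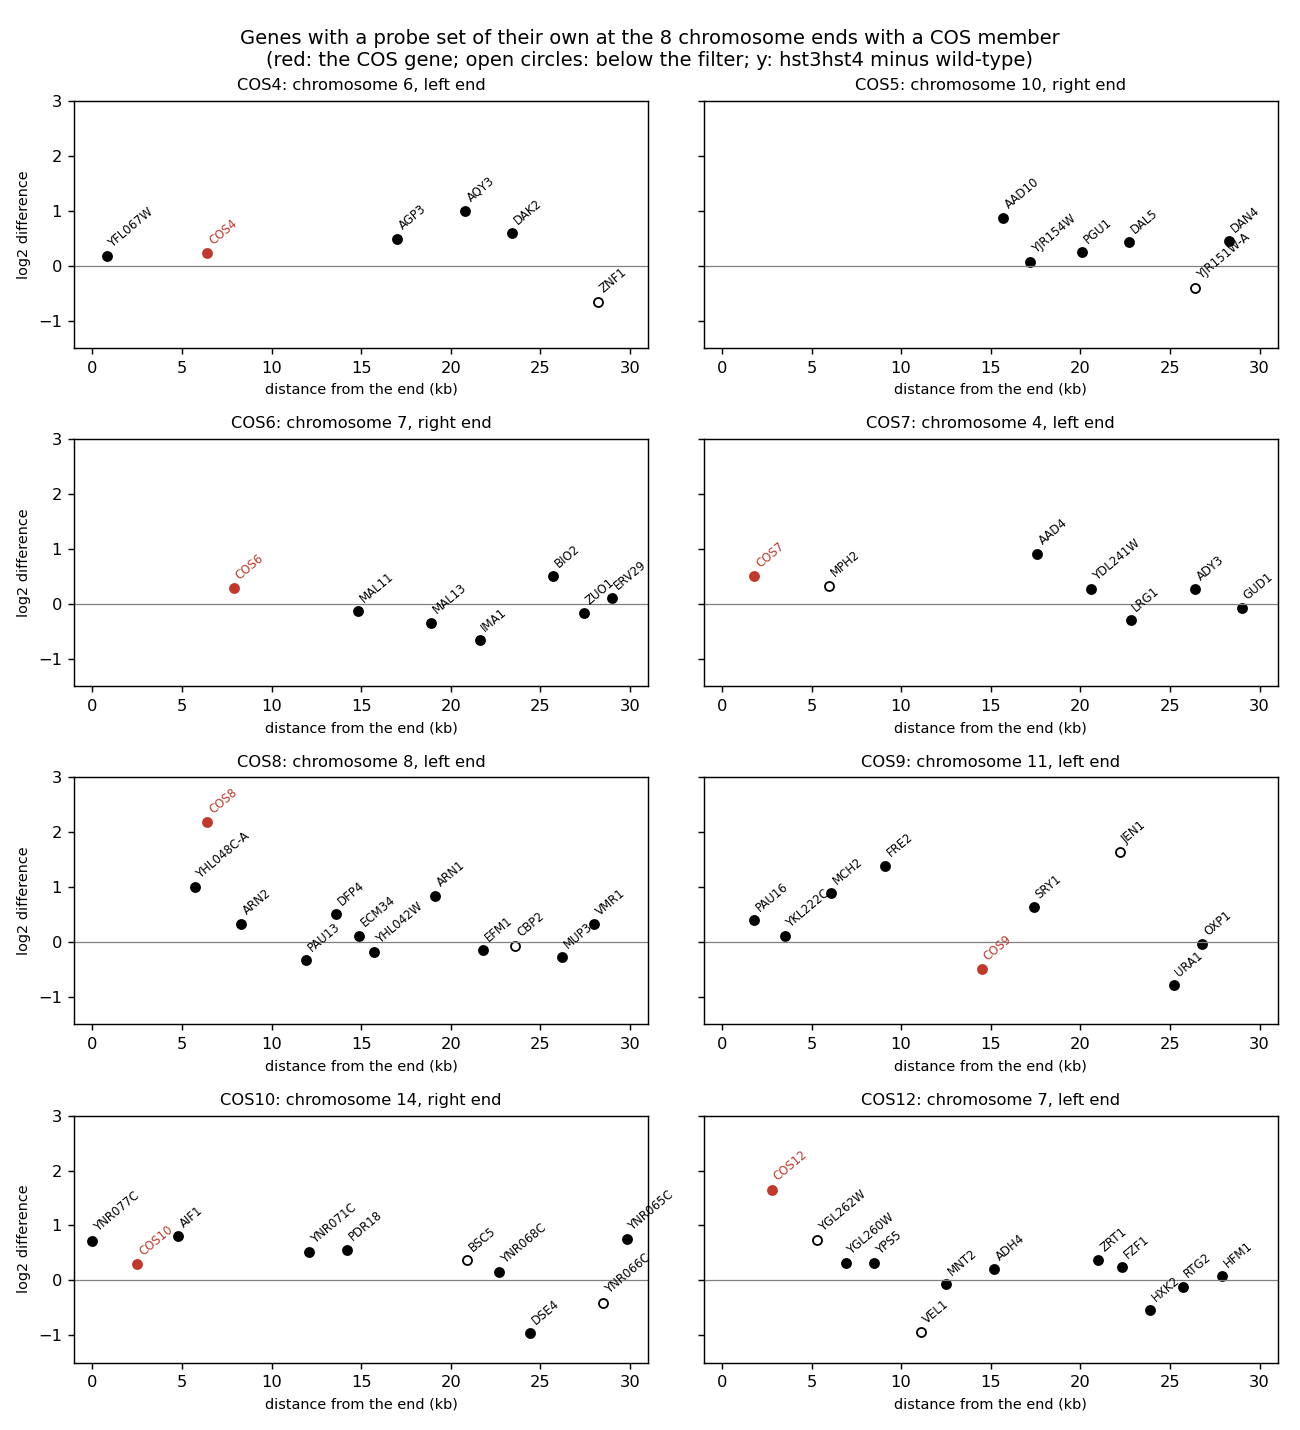
Log2 difference (hst3hst4 minus wild-type) of each gene with a probe set of its own within 30 kb of the 8 chromosome ends that carry a member, against distance from the end in kb. The COS gene is red, by its brightest probe set, and open circles lie below the filter. COS8 at 2.19 (1.10 on its plain _at set, not plotted) and COS12 at 1.65 are the highest points at their ends. COS9 at -0.50 lies below its neighbours FRE2 and SRY1.

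Within 30 kb of these ends 53 other genes were tested, of which 1 rose and 2 fell, against 2.20% higher and 0.531% lower (2.73% in either direction) over the 5271 genes tested with 1 probe set each. These 3 genes were named after their values were seen. AAD4, an aryl-alcohol dehydrogenase homolog on the COS7 end, rose from 105.5 and 111.6 on the wild-type arrays to 206.1 and 209.8 (0.92, SE 0.16, limma adjusted p = 0.0321) on a shared-probe set, while its plain probe set had 0.51 (limma adjusted p = 0.483). URA1, dihydroorotate dehydrogenase of pyrimidine synthesis, on the COS9 end, fell by 0.79 on the log2 scale (SE 0.15, limma adjusted p = 0.0366). DSE4, a daughter-cell glucanase on the COS10 end, fell by 0.96 (SE 0.18, limma adjusted p = 0.0408). All 3 calls were lost without either hst3hst4 array, when dim probe sets were kept in and without the variance trend. Those of URA1 and DSE4 were also lost on scaling by the hybridisation controls, and that of DSE4 without wild-type replicate 2.

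Position on its own was then described for all genes. With the COS genes left out, the 38 tested genes within 10 kb of an end had a median log2 difference of 0.36, and 28 were above 0. The 71 genes at 10 to 20 kb had a median of 0.02 and the 109 at 20 to 30 kb one of 0.07. Beyond 50 kb, 4767 genes had a median of -0.02, with 47.7% above 0.

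The outermost band differed from the rest in each pair of arrays, with medians of 0.25 to 0.49 over the 4 pairs, while the wild-type arrays differed from each other there by a median of -0.10. Of its 38 genes, 3 rose and 0 fell, a share of 7.89% against 2.20% over all genes tested, and this difference in share was not tested. Named after their values were seen, they were YAR068W (112.1 and 83.2 against 14.7 and 19.3), YEL073C (139.7 and 150.4 against 63.8 and 55.2) and YPS6, a yapsin protease (54.3 and 38.6 against 17.8 and 15.3). Their log2 differences were 2.31, 1.24 and 1.31 (limma adjusted p = 0.00476, 0.0176 and 0.0439). YAR068W and YEL073C were read by _s_at sets, which share their probes with other transcripts. All 3 calls were lost without either hst3hst4 array. Those of YEL073C and YPS6 were also lost when dim probe sets were kept in and without the variance trend. That of YPS6 was lost on centring by array medians as well. COS8 and COS12 are the tested COS members with differences above 1 in that band, and COS4, COS6, COS7 and COS10, each by its brightest probe set, lie between 0.23 and 0.50.

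**Figure D4:**
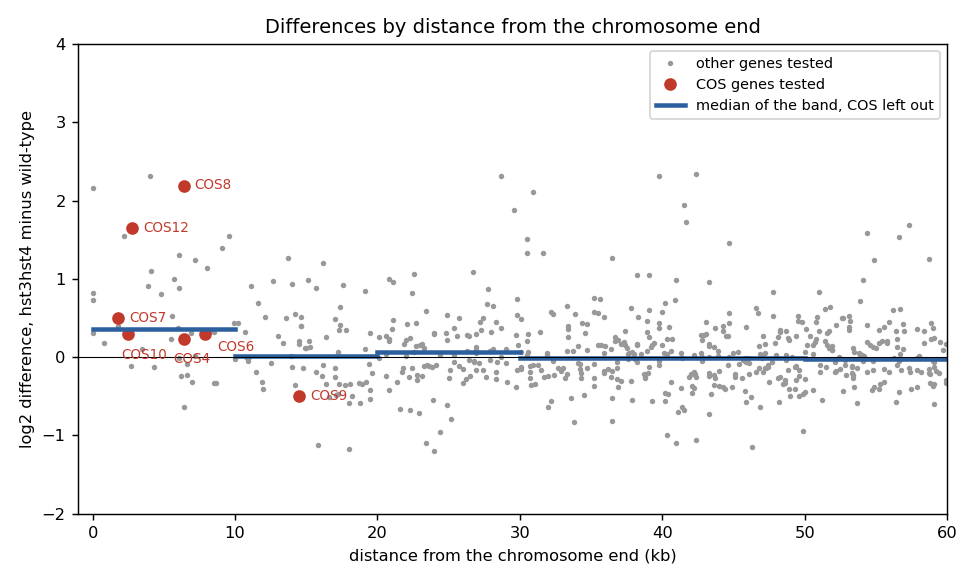
Log2 difference (hst3hst4 minus wild-type) of every tested gene within 60 kb of a chromosome end against its distance in kb, with COS genes in red and, as blue bars, the median of each band without them. The bar for 0 to 10 kb stands at 0.36 and the others near 0; COS9, at 14.5 kb, lies below 0.

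Related and functionally linked genes were read from lists. The DUP240 genes, a family of membrane proteins related to COS, had 9 of 10 members tested with a median of 0.05. None passed in limma, against 2.73% of all genes tested, and 1 had an unadjusted p under 0.05, against 20.2% of all tested probe sets. PRM9 was highest, with 22.8 and 26.2 against 15.8 and 14.3 (0.60, limma adjusted p = 0.260), followed by MST27 at 0.53 (limma adjusted p = 0.218), while UIP3 was lowest at -0.25 (limma adjusted p = 0.687), with MST28 at -0.02.

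The machinery on which COS proteins act showed no call. All 20 listed genes of the multivesicular body pathway were tested, with a median of 0.02. In limma 0 passed, against 2.73% of all genes tested, and 3 had an unadjusted p under 0.05, against 20.2% of all tested probe sets. SNF8, a subunit of the ESCRT-II complex, had 50.1 and 48.1 against 26.5 and 28.5 (0.77, limma adjusted p = 0.103), and its partner VPS36 had 0.60 (limma adjusted p = 0.505). DID2, which acts with the ESCRT-III complex, had 30.1 and 29.9 against 53.6 and 42.9 (-0.62, limma adjusted p = 0.173), and BRO1 had -0.33 (limma adjusted p = 0.393). The strains did not overlap on SNF8, DID2 and BRO1, nor on 52.5% of all tested probe sets.

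Rsp5 is the ubiquitin ligase that marks plasma membrane proteins for this route. It and its adaptors, 18 genes, had a median of -0.04, with 0 passing in limma, against 2.73% of all genes tested. By the same fit 7 had an unadjusted p under 0.05, against 20.2% of all tested probe sets. The highest were SSH4 at 1.15 (limma adjusted p = 0.215) and RIM8 at 0.86 (limma adjusted p = 0.0860). The lowest were ART10 at -1.12 (limma adjusted p = 0.234) and, by its brightest probe set, CSR2 at -0.94 (limma adjusted p = 0.20). The probe sets of CSR2 disagree, and 1 other than its brightest had 0.58. RIM8, an arrestin-like adaptor, had 61.5 and 67.6 against 38.7 and 29.8. The strains did not overlap on SSH4, RIM8, ART10 or this set of CSR2, nor on 52.5% of all tested probe sets.

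The PAU genes, another subtelomeric family, encode small secreted proteins. Of 24 listed, 10 had a tested probe set of their own, with a median of 0.59. Of these, 9 were above 0, against 2547 of all 5271 genes tested. None passed in limma, against 2.73% of all genes tested, and 6 had an unadjusted p under 0.05, against 20.2% of all tested probe sets. PAU3 had 59.9 and 55.4 against 19.0 and 30.8 (1.14, SE 0.26, limma adjusted p = 0.0649), PAU15 0.91 (limma adjusted p = 0.133), PAU10 0.35 and PAU13, at the COS8 end, -0.32 (limma adjusted p = 0.519). PAU genes are near-identical, so single values are uncertain.

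Factors that silence telomeres showed no call. Of 9 tested, with a median of -0.17, 0 passed in limma, against 2.73% of all genes tested. By the same fit 0 had an unadjusted p under 0.05, against 20.2% of all tested probe sets. The strains did not overlap on SIR2, RAP1 and SIR3, nor on 52.5% of all tested probe sets, but overlapped on SAS2. SIR2, the deacetylase of the Sir complex, had 53.0 and 56.2 against 34.2 and 45.9 (0.43, limma adjusted p = 0.314) and SAS2, a histone acetyltransferase, 0.16, while RAP1, which binds telomere repeats, had -0.43 (limma adjusted p = 0.317) and SIR3 -0.31 (limma adjusted p = 0.405).

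By Euclidean distance over the 4 arrays from the median centred profile of the tested COS probe sets, the nearest genes were OPI3, a methyltransferase of phosphatidylcholine synthesis (distance 0.0742), NCE102, an eisosome membrane protein (0.0836), SKN1, of glucan synthesis (0.0851), MCO6 (0.0854) and YDR262W (0.0856). OPI3 had 254.0 and 294.2 (hst3hst4) against 219.3 and 164.9 (wild-type). That profile is highest on hst3hst4 replicate 2 (0.32) and lowest on wild-type replicate 2 (-0.45), so it follows the spread within strains as well as the difference between them. With 4 arrays many genes share such a profile.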

How the data were processed

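RNA from 2 cultures per strain was amplified from an oligo-dT primer and labelled with biotin for Affymetrix arrays of 1 colour, per the labels' protocols. Linear intensity, 1 value per probe set, is what the authors deposited. The submitters' processing notes name GCOS 1.4 and MAS5. A trimmed mean of 150.2 on every array shows scaling to a common mean, so differences are relative to it. Detection calls were not used here.

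Of 9335 probe sets, 60 controls were left out. All 6504 probe sets with 1 gene matched RefSeq genes (R64 assembly), while 328 had several and 2443 none listed. Signals were taken as log2(signal + 3.3), the constant being the 10th percentile of all signals. The strains were compared with limma 3.58.1 (R 4.3.3, lmFit, eBayes with trend, two-sided, Benjamini-Hochberg over 7420 probe sets). On simulated data this fit missed part of the changed probe sets and called some unchanged ones, so a gene that did not pass may still differ. For genes with several probe sets, lists, bands and neighbours use the brightest tested one. Distances at right ends start from the outermost annotated gene. The alternatives were other normalizations, constants, filters, no trend, a replicate block and each array left out. The members, lists and tests were chosen with earlier results of these data known. Genes are named by a rule: all COS genes, the deleted genes, nearest neighbours, the 5 genes most alike, and the 2 highest, 2 lowest and all passing genes of each list. Exceptions are marked. Promoter and protein sequences were not analysed here.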

Additional observations from a re-analysis of the deposited data

How the results depend on the processing

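The alternatives were quantile normalization, centring, constants of 1 and 12.9, no filter or 40%, no trend, the replicate block, each array left out, plain _at probe sets only and, added after the data were seen, scaling on hybridisation controls. COS8 and COS12 kept their direction under each in which they were tested. Their log2 differences ranged from 0.94 to 1.46 (COS8, _at set), 2.04 to 2.55 (_i_at), 2.06 to 2.73 (_f_at) and 1.04 to 2.01 (COS12). The count of COS probe sets passing was 2 with no filter and ran from 0 to 5 with an array left out. Their median was 0.68 with no filter, where 4 dim probe sets enter, 0.66 on the control scaling, and 0.23 to 0.70 with an array left out. Over all probe sets 36 passed with no filter, 38 without the trend, 1186 on the control scaling (1163 higher, 23 lower, against 156 and 40) and 4 to 865 with an array left out, and the trend-free split was 37 and 1. The control scaling moved the median of all tested probe sets to 0.34 and that of genes within 10 kb of an end to 0.72. With the replicate block 343 probe sets passed, 4 of them COS; same-numbered arrays did not deviate together (r = -0.04 across probe sets), so the numbers are not taken as pairs. Among 53 other named genes, 549 of 639 values kept direction and side of the threshold and no called gene reversed. The other filters, the fit without trend and the replicate block leave every log2 difference unchanged, so no direction could change there. Most of the 53 did not pass in the main fit, so keeping side mostly meant not passing again. Nothing about robustness is read from that count.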
